A study of Mus musculus with 90 samples.

Results

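The lungs of air-breathing control mice were compared between the later and the earlier of the study's sampling times, 4 weeks and 1 week. All arrays at 0 ppm styrene were taken, 15 at 4 weeks and 15 at 1 week, which makes 30 of the 90 arrays of the series. The other 60 arrays came from mice that inhaled 40 or 120 ppm styrene for the same times, and they are used here only where the time difference is set beside that of exposed lungs.

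The animals were adult male C57Bl/6 mice from one supplier, and each of the 6 control groups held 5 animals with 1 array each. WT stands for wild type and KO for a Cyp2f2 knockout, and TG mice carried that knockout plus human CYP2F1, CYP2B6 and a gene that the design text writes as SA13. What drives the human genes is not given in the labels. Controls of every strain sat singly in wire-mesh exposure cages in air for 6 hours on each of 5 days per week, and whole lungs were taken the morning after the final session. The labels give no age in weeks, and no date of extraction, labelling or scanning. Time in the study, age and any difference in when the 4-week and 1-week samples were processed cannot be told apart.

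Whole lung is a mixture of alveolar epithelium, airway club and ciliated cells, a dense capillary endothelium, fibroblasts, smooth muscle and immune cells. In the adult mouse it is largely quiescent, with slow turnover of epithelium and endothelium, while surfactant-producing alveolar type II cells keep a high demand for lipid synthesis and mitochondrial energy. Its gene expression also follows the day through the circadian clock and through glucocorticoids. A fall of a transcript in whole lung can be fewer cells of a type or less RNA per cell, and these cannot be told apart in such samples.

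Values are the log2 expression values of the deposited table, each gene is shown by its brightest probe set, and a difference is the mean at 4 weeks minus the mean at 1 week on the log2 scale with strain in the model. A gene passed when its limma p, adjusted over all 17097 genes, was under 0.05. All 22 measured markers of lung cell types lay above the array median on all 30 arrays, among them Scgb1a1 of club cells, Sftpc of alveolar type II cells, Ager of alveolar type I cells and Cldn5 of endothelium. Cyp2f2, which was knocked out in KO and TG mice, averaged from 11.84 to 11.92 log2 in the KO and TG control groups and from 13.26 to 13.27 log2 in the WT control groups. Whether its probe set lies in the deleted part is not given.

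Array medians ran from 4.55 to 4.83 log2 at 4 weeks and from 4.66 to 4.84 log2 at 1 week. A set of 3 control arrays stood apart from the rest. KO animal 3 and TG animal 5 at 1 week had the lowest array quality weights, 0.211 and 0.157, where the average array has about 1. TG animal 3 at 4 weeks had the lowest array median. Counts are therefore also given without these 3 arrays, an alternative chosen after seeing the data.

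Between the times, 2617 of 17097 genes passed (15.3%), of which 1626 were higher at 4 weeks (9.51%) and 991 were lower (5.8%). The differences were small. The genes that rose had a median difference of 0.37 and those that fell a median of -0.21, against -0.02 over all genes. A change of more than 1.5-fold was seen for 221 genes that rose and 41 that fell. A change of more than 2-fold was seen for 2 genes that rose and 5 that fell. Without the 3 arrays that stood apart, 2654 genes passed (15.5%), 1915 of them higher (11.2%) and 739 lower (4.32%), and 2218 genes were in both lists with the same direction.

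Rises and falls differed in their spread between animals. The median SE was 0.10 for genes that rose and 0.06 for genes that fell, and for the named genes it was 0.19 among the largest rises and 0.08 among the largest falls. The mean of the largest rises on each array had an SD of 0.57 over the 15 animals at 1 week. For the mean of the largest falls that SD was 0.10. In 0 genes did all 15 animals at 4 weeks lie above all 15 at 1 week. In 33 genes (0.193%) all 15 animals at 4 weeks lay below all 15 at 1 week. Neither count was made without the 3 arrays that stood apart. The zinc finger gene Zfp606, 1 of the largest rises, overlapped only through TG animal 3 at 4 weeks, at 2.94 log2. Every other animal at 4 weeks had at least 4.45 log2, and the highest at 1 week had 4.31 log2.

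**Figure D1:**
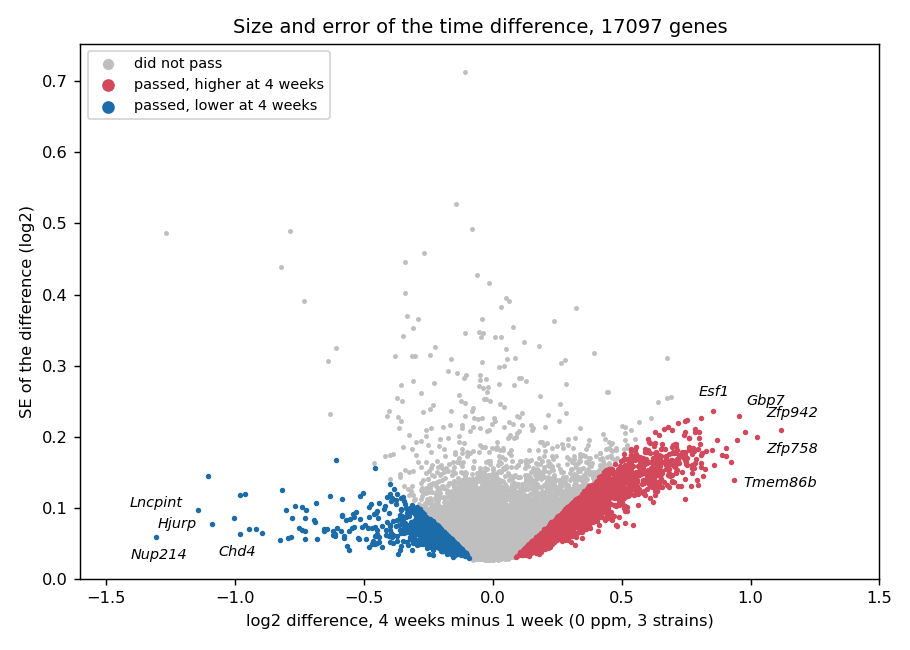
Each point is a gene, placed by its log2 difference (4 weeks minus 1 week, x axis) and the SE of that difference (y axis), with genes that passed in red (higher at 4 weeks) and blue (lower). The largest falls, such as Nup214 at -1.31, have an SE near 0.06, while the largest rises, such as Zfp942 at 1.12, have an SE near 0.21.

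Nup214, a nucleoporin on the cytoplasmic face of the nuclear pore, had the largest fall. Its values ran from 5.39 to 5.85 log2 with a median of 5.59 at 4 weeks, against 6.69 to 7.28 with a median of 6.86 at 1 week. The 2 sets of animals did not overlap, and the difference was -1.31 (SE 0.06, adjusted p = 6.2e-16), a level 2.47-fold lower at 4 weeks. It was -1.40 in WT, -1.36 in KO and -1.15 in TG mice.

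Lncpint is a long non-coding RNA induced by p53 that acts with the Polycomb repressive complex. It spanned 5.80 to 6.82 log2 (median 6.34) at 4 weeks and 6.98 to 7.85 log2 (median 7.47) at 1 week, again with no overlap. The difference was -1.14 (SE 0.10, adjusted p = 8.6e-10). Hjurp, the chaperone that places the centromeric histone CENP-A, lay between 5.11 and 5.81 log2 (median 5.55) at 4 weeks and between 6.22 and 7.06 log2 (median 6.68) at 1 week. Its difference was -1.09 (SE 0.08, adjusted p = 3.2e-11).

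Chd4 encodes the remodelling ATPase of the NuRD chromatin complex. It reached from 6.73 to 7.70 log2 (median 7.07) at 4 weeks and from 7.98 to 8.37 log2 (median 8.13) at 1 week, a difference of -0.98 (SE 0.06, adjusted p = 5.8e-12). The difference was -0.72 in TG mice, -1.03 in KO mice and -1.19 in WT mice. The test of a strain difference in this effect did not pass for Chd4 (adjusted p = 0.9999, unadjusted p = 0.0043).

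Ap3b1, a subunit of the adaptor complex that sorts cargo to lysosome-related organelles, spanned 7.93 to 8.49 log2 (median 8.18) at 4 weeks and 8.82 to 9.25 log2 (median 9.05) at 1 week, with a difference of -0.82 (SE 0.06). Smg6, the endonuclease of nonsense-mediated mRNA decay, fell by 0.95 (SE 0.07), with values up to 6.61 log2 at 4 weeks and down to 6.62 log2 at 1 week. Zbtb38, a methyl-DNA-binding repressor, fell by 1.10 (SE 0.14), and 14 of 15 animals at 4 weeks lay below all at 1 week. The exception was the TG animal 3 already described, and without the 3 arrays the Zbtb38 difference was -1.28.

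The other largest falls were Wdcp (-1.005), Srp54b (-0.98), the cilium gene Cfap46 (-0.96), Tlnrd1 (-0.92), Plekha5 (-0.90), the zinc finger gene Rlf (-0.82), Rufy2 (-0.80) and Arhgap32 (-0.80). All 15 of the largest falls also passed without the 3 arrays. Srp54b has close copies that the array reports under their own names. Those copies moved the other way, with Srp54a 0.41 higher (adjusted p = 0.0073) and Srp54c 0.45 higher (adjusted p = 0.011), so the gene assignment of these 3 probe sets is uncertain.

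Other genes among the 33 without overlap, named here after their values were seen, were the acetyltransferase Crebbp (-0.58), the histone demethylase Kdm5b (-0.47), the neuronal-gene repressor Rest (-0.31), the AP-1 member Jund (-0.61), and Hira (-0.56) and Ubn1 (-0.37) of the H3.3 histone chaperone complex. These are differences of the brightest probe set. The median of the other probe sets was -0.10 for Kdm5b, -0.06 for Jund and 0.06 for Ubn1. Lpcat1, an acyltransferase that makes surfactant phosphatidylcholine in alveolar type II cells, was also without overlap. It reached at most 11.37 log2 at 4 weeks and at least 11.44 log2 at 1 week, with a difference of -0.36 (SE 0.04). The pro-apoptotic gene Bcl2l11 fell by 0.47 (SE 0.05).

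**Figure D2:**
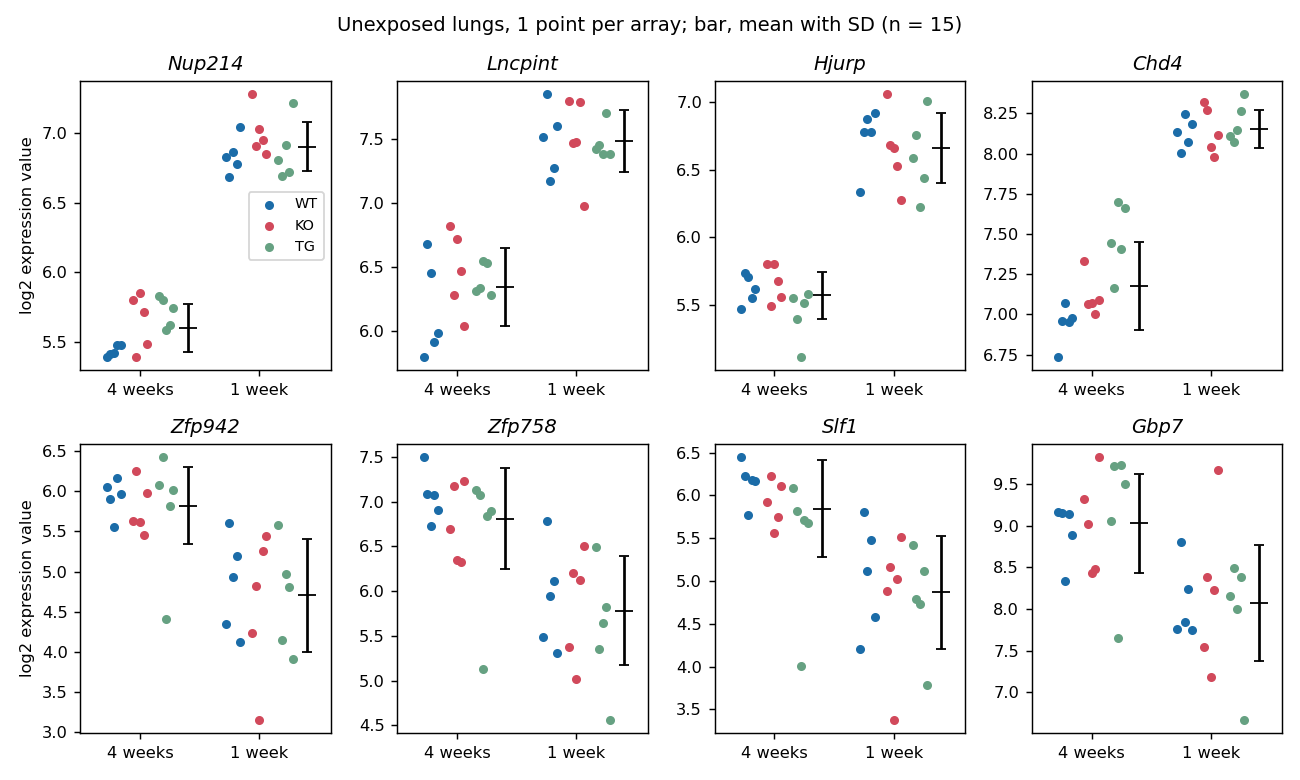
Log2 expression values (y axis) of 4 of the largest falls (top row) and the 4 largest rises (bottom row) in the unexposed lungs, with 4 weeks left of 1 week, 1 point per array coloured by strain, and bars for the mean with SD (n = 15). The 2 times separate completely in the top row and overlap in the bottom row, where 1 TG animal at 4 weeks lies far below the others for Zfp942, Zfp758 and Slf1.

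The largest rise was that of Zfp942, a zinc finger gene. It spanned 4.40 to 6.43 log2 (median 5.96) at 4 weeks and 3.16 to 5.61 log2 (median 4.82) at 1 week, a difference of 1.12 (SE 0.21, adjusted p = 0.001). The times overlapped, though 12 of 15 animals at 4 weeks lay above all 15 at 1 week. Zfp758, another zinc finger gene, lay between 5.13 and 7.50 log2 (median 6.91) at 4 weeks and between 4.56 and 6.79 log2 (median 5.82) at 1 week, with a difference of 1.03 (SE 0.20, adjusted p = 0.0015).

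Slf1, which links the SMC5/6 complex to damaged DNA, rose by 0.98 (SE 0.21). It ran from 4.01 to 6.45 log2 (median 5.92) at 4 weeks and from 3.38 to 5.81 log2 (median 5.03) at 1 week. Gbp7, an interferon-inducible GTPase, had 7.65 to 9.83 log2 (median 9.14) at 4 weeks against 6.67 to 9.67 log2 (median 8.15) at 1 week. Its difference was 0.95 (SE 0.23, adjusted p = 0.0067), and only 3 animals at 4 weeks lay above all at 1 week. Ifi209, an interferon-activated gene, rose by 0.91 (SE 0.17) and both of its probe sets moved alike, by 0.91 and 0.93.

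Tmem86b, a lysoplasmalogenase, had the smallest error among the large rises. It spanned 3.59 to 4.90 log2 (median 4.39) at 4 weeks and 2.50 to 4.47 log2 (median 3.32) at 1 week, with a difference of 0.94 (SE 0.14, adjusted p = 4.3e-05). The remaining large rises were the zinc finger genes Zfp97 (0.95), Zfp606 (0.92), Zfp51 (0.90), Zfp943 (0.89) and Zfp638 (0.87), the phospholipase gene Plcb1 (0.86), the nucleolar ribosome-assembly gene Esf1 (0.85) and the centriolar satellite gene Pcm1 (0.85). All 14 of these named rises also passed without the 3 arrays.

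Of those 14 genes, 7 carry the zinc finger symbol Zfp, which led to a count over the whole family, made after seeing the values. Of 301 genes with a Zfp symbol, 101 were higher (33.6%, against 9.51% of all genes) and 8 were lower (2.66%, against 5.8%). Their median difference was 0.08. Without the 3 arrays 109 were higher (11.2% of all genes were). In exposed lungs 62 were higher at 40 ppm (6.45% of all genes) and 111 at 120 ppm (12.3% of all genes). Many of these genes resemble each other in sequence, and cross-hybridisation between them was not tested. Genes that rose also had longer gene spans in the RefSeq annotation, with a median of 42.1 kb against 16.4 kb for genes that fell and 20.2 kb for all genes.

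Several genes have more than 1 probe set, and these did not always move together. Of the 2617 genes that passed, 1552 had several probe sets, and in 1116 of them (71.9%) the median of the other probe sets had the same sign as the brightest. In 251 genes, 165 higher and 86 lower, every probe set passed in the same direction. The 1027 rises among these 1552 genes had a median of 0.37 by the brightest probe set and 0.09 by the others. The 525 falls had a median of -0.22 by the brightest and -0.09 by the others.

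Esf1 rose by all 3 of its probe sets, by 0.85, 0.72 and 0.65. For Pcm1, 4 of 5 probe sets rose. The brightest and next brightest probe sets of Plcb1 moved in opposite directions, 0.86 and -0.72, so no direction can be given for that gene as a whole. The same holds for Rufy2, with -0.80 at its brightest probe set and 0.27 at the other (adjusted p = 0.018). Ap3b1 fell by 0.82 at its brightest probe set while its other probe set had a difference of 0.05. Smg6 was alike, with -0.95 at its brightest and 0.06 and 0.09 at the others. Plekha5 had -0.90 at its brightest and 0.08 and -0.26 at the others. The other probe set of Tlnrd1 had a difference of -0.06 and that of Wdcp -0.15. Among the 33 genes without overlap, 24 had several probe sets, with a median of -0.59 by the brightest and -0.06 by the others. Nup214, Lncpint, Hjurp, Chd4, Zbtb38 and Arhgap32 have a single probe set each.

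Control probe sets for 18S ribosomal RNA moved with the sampling time. The probe set for the middle of the 18S RNA ranged from 10.14 to 11.05 log2 (median 10.60) at 4 weeks and from 11.34 to 12.01 log2 (median 11.78) at 1 week, a difference of -1.16 (SE 0.08, adjusted p = 4.5e-12) with no overlap. The 5′ probe set differed by -0.65 (SE 0.06, adjusted p = 6.5e-09), and the 3′ probe set by 0.07 (SE 0.07, adjusted p = 0.52). The shift was similar in exposed lungs, with -1.14 at 40 ppm and -1.07 at 120 ppm for the middle probe set. The control probe sets for the transferrin receptor, which are dim, also moved. The middle one averaged 3.56 ± 0.14 log2 at 4 weeks and 4.00 ± 0.17 log2 at 1 week (SD, n = 15 each), a difference of -0.44 (SE 0.06, adjusted p = 1.5e-06). The 5′ one differed by -0.47 (SE 0.09, adjusted p = 0.00028) and the 3′ one by 0.02 (adjusted p = 0.88). The part of these shifts in the gene differences was not tested.

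Other controls moved less. Hybridisation controls added after labelling differed by -0.17 on average for BioB (SE 0.04). The 12 poly-A controls added to the RNA averaged 7.04 log2 at 4 weeks and 6.98 log2 at 1 week. At 1 week the lowest means of the named rises were 4.84 log2 in TG animal 5 and 4.85 log2 in KO animal 3. These arrays had the highest poly-A averages of that time, 7.70 and 7.66 log2. At 4 weeks the lowest mean, 5.58 log2 in TG animal 3, came with 7.08 log2, while the highest poly-A average was 7.45 log2. Whether the rises follow such array measures was not tested. The 3′ minus 5′ difference of the Gapdh control was 0.06 at 4 weeks and 0.03 at 1 week, and that of Actb was 0.42 at 4 weeks and 0.41 at 1 week.

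**Figure D3:**
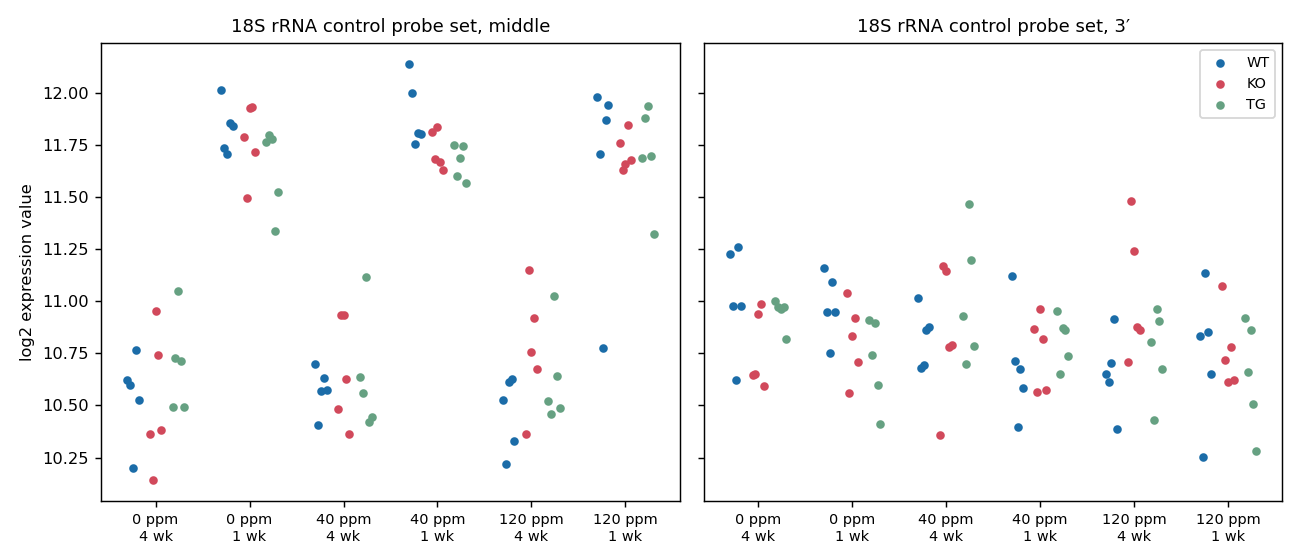
Log2 expression values (y axis) of the 18S rRNA control probe sets for the middle (left panel) and the 3′ part (right panel) in all 90 arrays by dose and time, 4 weeks left of 1 week within each dose, 1 point per array coloured by strain. The middle probe set is lower at 4 weeks at every dose, apart from 1 WT array at 120 ppm and 1 week that lies among the 4-week arrays at 10.78, and the 3′ probe set does not separate the times.

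Gene lists for lung cell types and processes were read against the shares of all genes, 9.51% higher and 5.8% lower. Of 54 lists, 17 had no member that passed. Among lists of 12 or more members, the shares that stood farthest from those of all genes were in lists of mitochondrial energy and of lipid synthesis on the lower side, and in lists of heat shock and mitosis on the higher side.

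In the oxidative phosphorylation list, 11 of 27 members fell and 0 rose, with a median difference of -0.11 against -0.02 for all genes. The falls were small. Ndufv1, a flavoprotein of complex I, ranged from 9.43 to 9.98 log2 (median 9.71) at 4 weeks and from 9.82 to 10.33 log2 (median 9.98) at 1 week. Its difference was -0.26 (SE 0.06, adjusted p = 0.0031), and 11 of 15 animals at 4 weeks lay below all at 1 week. Sdhd, an anchor subunit of complex II, fell by 0.25, and the complex I genes Ndufb5, Ndufb9, Ndufs3 and Ndufa2 fell by 0.20, 0.20, 0.20 and 0.18. Without the 3 arrays 9 of 27 fell. At 40 ppm 7 of 27 fell and 1 rose, and at 120 ppm 7 fell, where 7.03% and 2.3% of all genes fell at those doses.

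Sterol and fatty acid synthesis showed 9 falls and 1 rise among 24 members, with a median of -0.18. Hsd17b7, a reductase of cholesterol synthesis, had the largest fall. It spanned 5.76 to 6.69 log2 (median 6.21) at 4 weeks and 6.36 to 7.39 log2 (median 6.90) at 1 week, a difference of -0.58 (SE 0.11, adjusted p = 0.0013). Enzymes earlier in the same pathway also fell, namely Msmo1 by 0.38, Mvd by 0.35, Fdps by 0.33 and Fdft1 by 0.32. Dhcr7, a later enzyme named after its value was seen, fell by 0.30. The fatty acid elongase Elovl6 rose by 0.42. Without the 3 arrays 8 members fell and 0 rose. The list had 13 falls at 40 ppm, where 7.03% of all genes fell, and 1 fall at 120 ppm, where 2.3% did.

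Mitosis genes rose in 6 of 30 cases and fell in 0, with a median of 0.15. Mki67, the marker of cycling cells, ran from 4.72 to 6.29 log2 (median 5.80) at 4 weeks and from 4.00 to 5.37 log2 (median 4.75) at 1 week. It rose by 0.77 (SE 0.15, adjusted p = 0.0014), with 9 of 15 animals at 4 weeks above all at 1 week. Cep55, needed for the last step of cell division, rose by 0.68, the checkpoint kinase Bub1 by 0.64, the cyclin Ccna2 by 0.41, the topoisomerase Top2a by 0.40 and the spindle protein Nusap1 by 0.39. Without the 3 arrays 11 of 30 rose. Hjurp, whose protein acts at dividing centromeres, fell in the same lungs. In the DNA replication list 3 of 28 rose (Pola1 by 0.58, Ccne2 by 0.34, Mcm4 by 0.21) and 2 fell (Rfc3 by 0.25, Mcm2 by 0.22), with a median of -0.02.

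Among stress lists, 3 of 13 heat shock genes rose and 0 fell. They were Hspa4l by 0.70 (SE 0.19), Hsph1 by 0.61 and Hspb1 by 0.43. In the unfolded protein response list 4 of 24 rose, namely the chaperones Hsp90b1 by 0.32, Hspa5 by 0.24, Canx by 0.24 and Dnajb9 by 0.22. The other probe set of Hsp90b1 had a difference of -0.16 (limma adjusted p = 0.45), and those of Hspa5 and Canx had 0.16 and 0.29. Without the 3 arrays 2 of 24 rose (11.2% of all genes did). Of 24 interferon-response genes, 4 rose (Ifit2 by 0.56, Ifit1 by 0.49, Gbp3 by 0.46, Ifih1 by 0.44) and 2 fell (Stat2 by 0.26, Xaf1 by 0.21). Both of those falls were lost without the 3 arrays, at adjusted p = 0.068 and 0.067. At 40 ppm 0 members of the heat shock, unfolded protein response and interferon lists rose (6.45% of all genes did). There 4 interferon genes fell (7.03% of all genes did). At 120 ppm 6, 5 and 4 members of these lists rose (12.3% of all genes did). In the Nrf2 and glutathione list 1 of 26 rose (Aox1 by 0.28) and 4 fell, the largest being Pgd by 0.22, an enzyme of the pentose phosphate pathway.

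**Figure D4:**
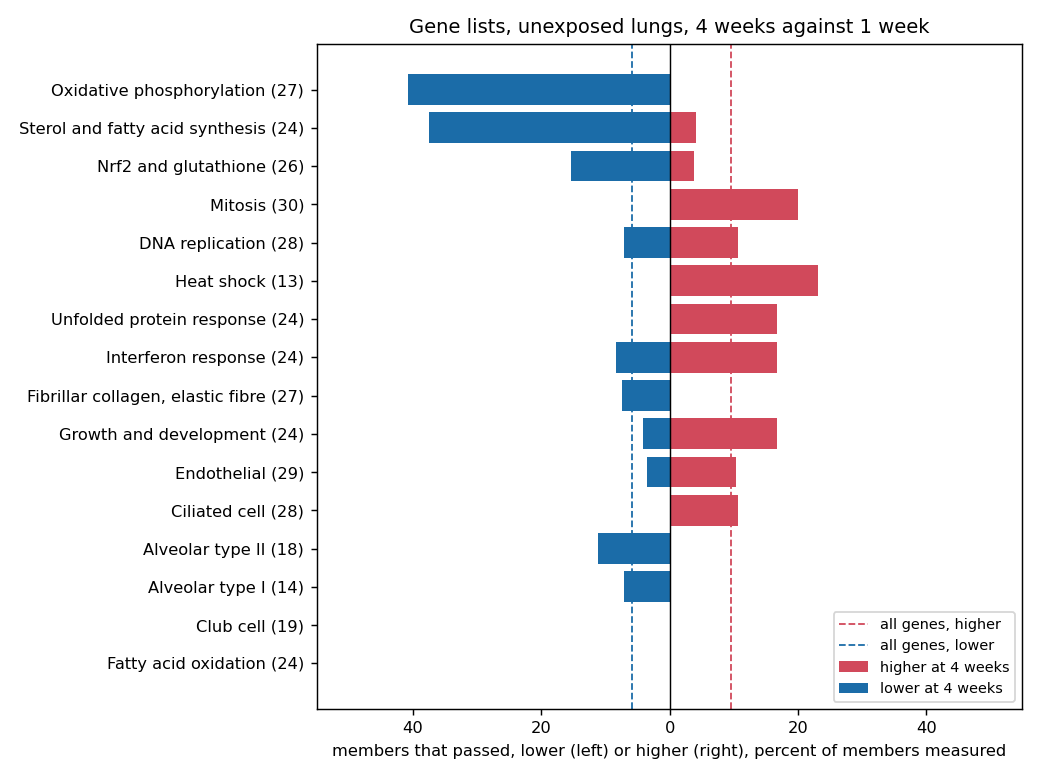
Percent of the measured members of 16 gene lists that passed in unexposed lungs, higher at 4 weeks to the right (red) and lower to the left (blue), with the number of members in brackets and dashed lines at the shares of all genes, 9.51% and 5.8%. Oxidative phosphorylation and sterol and fatty acid synthesis reach farthest to the left and heat shock farthest to the right, and club cell and fatty acid oxidation genes have no bar.

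Airway cell markers showed few changes. Of 19 club cell markers 0 passed. Scgb1a1, the club cell secretoglobin, had a median of 13.79 log2 at both times and a difference of 0.02 (SE 0.03), and Scgb3a2 had a difference of -0.02 (SE 0.04). Cyp2f2 itself differed by 0.00 (SE 0.05). Of 28 ciliated cell genes 3 rose, namely Ccdc39, which builds the ruler of axonemal dyneins (0.81, SE 0.17), the transcription factor gene Rfx3 (0.46) and the dynein gene Dnah11 (0.30), with a list median of -0.01.

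In the alveoli, 1 of 14 alveolar type I markers and 2 of 18 type II markers fell, and 0 of either rose. Cldn18, the lung claudin of alveolar tight junctions, lay between 11.34 and 11.97 log2 (median 11.69) at 4 weeks and between 11.75 and 12.17 log2 (median 11.94) at 1 week. It fell by 0.29 (SE 0.05, adjusted p = 0.00043), with 13 of 15 animals at 4 weeks below all at 1 week. Its other probe set had a difference of 0.00. The type II genes Fabp5 and Muc1 fell by 0.24 and 0.22.

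Endothelial genes rose in 3 of 29 cases and fell in 1. The endothelial transcription factor gene Erg rose by 0.51 (SE 0.15), Lyve1 by 0.43 and the adrenomedullin receptor gene Calcrl by 0.42, and the arterial connexin gene Gja5 fell by 0.26. The other probe set of Erg had a difference of -0.35 (limma adjusted p = 0.061). Of 15 smooth muscle and pericyte genes, Rgs5 rose by 0.69 (SE 0.14) and Higd1b fell by 0.37 (SE 0.06). Both are used as pericyte markers. The other probe sets of Rgs5, which are dim with averages of at most 3.43 log2, had a median of -0.03.

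Matrix genes were mostly without a call. Of 27 fibrillar collagen and elastic fibre genes, 0 rose and 2 fell, the collagen cross-linking enzyme Loxl2 by 0.59 (SE 0.09, adjusted p = 6e-05) and Col6a1 by 0.23. Col6a1 did not pass without the 3 arrays (-0.17, adjusted p = 0.053), and there 1 other member, Fbln2, named after its value was seen, rose by 0.14 (adjusted p = 0.017). In basement membrane, Col4a3 rose by 0.42 and Lama3 by 0.30, 2 of 14. Of 24 growth and development genes, 4 rose (Ghr by 0.46, Plagl1 by 0.44, Bmp4 by 0.40, Fgf7 by 0.39). For Ghr, the growth hormone receptor gene, the median over its probe sets had a difference of -0.0043. Its other probe sets differed by 0.28 (limma adjusted p = 0.027) and -0.12 (limma adjusted p = 0.14). The growth-restraining imprinted gene Cdkn1c fell by 0.48 (SE 0.07, adjusted p = 3.4e-05), with 8.20 to 8.65 log2 (median 8.44) at 4 weeks and 8.47 to 9.30 log2 (median 8.86) at 1 week.

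Immune cell lists had 0 or few members past the threshold. The B cell gene Ms4a1 rose by 0.75 (1 of 16), the T cell gene Bcl11b by 0.42 (1 of 17) and the natural killer receptor gene Klrk1 by 0.32 (1 of 17). None of these 3 passed without the 3 arrays, where the differences were 0.50, 0.30 and 0.30 with adjusted p = 0.078, 0.072 and 0.072. The 17 neutrophil genes had 1 fall, Cd177 by 0.40, which was also lost (adjusted p = 0.12). Lists of heart, skeletal muscle, fat, liver, thyroid, cartilage, nerve and mesothelium had 0 members that passed among 22, 15, 14, 16, 4, 14, 10 and 10.

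Of 23 inflammation genes, the prostaglandin synthase gene Ptgs2 rose by 0.66 (SE 0.18) and Nfkbiz by 0.32, and 0 fell. The other probe sets of Nfkbiz had differences of -0.18 and 0.18. In the p53 list 2 of 21 rose, the pro-apoptotic gene Pmaip1 by 0.58 and the cyclin gene Ccng1 by 0.36. Of 30 enzymes of foreign-compound metabolism, Cyp1b1 rose by 0.42 and Pon3 fell by 0.13 beside the rise of Aox1. The sign for Cyp1b1 turned with the median over its probe sets, of which the others are dim, averaging 3.27 and 3.21 log2. The hypoxia and glycolysis list had a rise of Hif1a by 0.30, a master regulator of that response, and falls of Higd1a by 0.19 and Pgk1 by 0.14 among 23, where the other probe sets of Higd1a had differences of 0.06 and 0.05. Ccng1 (adjusted p = 0.052), Cyp1b1 (adjusted p = 0.080), Pon3 (adjusted p = 0.054) and Pgk1 (adjusted p = 0.055) did not pass without the 3 arrays. Of 23 mucous cell genes, Clca3a1 rose by 0.44 and Itln1 fell by 0.23. Fatty acid oxidation had 0 of 24.

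Clock genes differed little by their brightest probe sets. The other probe set of Arntl fell by 0.53 (limma adjusted p = 0.0093), against a difference of 0.19 at its brightest. A dimmer probe set of Rora rose by 0.48 (limma adjusted p = 0.019), against 0.12 at its brightest. Clock itself rose by 0.51 (SE 0.12, adjusted p = 0.0059), 1 of 5 activators, and Ciart by 0.31, 1 of 9 repressors. Of 6 output genes 0 passed. Dbp, a strongly rhythmic output gene, lay between 4.27 and 6.75 log2 (median 6.16) at 4 weeks and between 4.43 and 7.67 log2 (median 6.03) at 1 week, and Per1 had a difference of -0.16 (SE 0.15). In the glucocorticoid-responsive list Klf9 rose by 0.28 and Mt1 and Sgk1 fell by 0.23 and 0.19, 3 of 14. Klf9 did not pass without the 3 arrays (0.24, adjusted p = 0.090). Fkbp5, another such gene, had a difference of -0.41 (SE 0.23, adjusted p = 0.24).

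Within single strains, with 5 animals at each time, fewer genes passed. There were 100 genes in WT (0.585%), 16 higher (0.0936%) and 84 lower. In KO mice 73 passed (0.427%), 10 higher (0.0585%) and 63 lower, and in TG mice 66 (0.386%), 5 higher (0.0292%) and 61 lower. Both figures depend on single animals, since leaving out 1 animal moved them to between 35 and 117 in KO and between 37 and 100 in TG mice. A total of 37 genes passed in each of the 3 strains, all of them lower at 4 weeks. They include Nup214, Chd4, Hjurp and Lncpint.

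The largest rises within WT were Adamts20 (0.88, SE 0.18), a metalloproteinase gene, the mitotic checkpoint gene Zwilch (0.73) and Spx (0.71), which encodes the peptide spexin. In KO mice they were Tmem86b (1.07), the transcription factor gene Sox4 (0.67) and Ovgp1 (0.67), and in TG mice Sfmbt2 (0.99), Zfp708 (0.94) and Ildr2 (0.86). Gp2, known from pancreatic granules and mucosal M cells, showed the largest fall in KO mice. It had 3.40, 3.98, 2.69, 4.18 and 3.25 log2 at 4 weeks, against 5.61, 3.30, 6.26, 6.91 and 5.93 log2 at 1 week. Here 4 of 5 KO animals at 1 week were high and 1 was within the 4-week range, and the difference was -2.10 (SE 0.47, adjusted p = 0.034). Gp2 differed by 0.36 in WT and -0.08 in TG mice.

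The test of whether the time difference varied between strains passed for 0 of 17097 genes by limma's F test. The unadjusted p was under 0.05 for 628 genes (3.67%), and the smallest adjusted p was 0.9999. Of the genes with the smallest unadjusted p, Gpr85 differed by 0.42 in WT, 0.07 in KO and -0.23 in TG mice, and the sterol hydroxylase gene Cyp7b1 by 0.33, -0.06 and -0.48.

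Lungs of separate animals at 40 and 120 ppm gave the same comparison of times, with length of styrene exposure now differing as well. At 40 ppm 2305 genes passed (13.5%), 1103 higher (6.45%) and 1202 lower (7.03%). At 120 ppm 2492 passed (14.6%), 2099 higher (12.3%) and 393 lower (2.3%). In each dose 1 array stood apart, with the lowest array median of that dose, 4.73 log2 at 40 ppm and 4.42 log2 at 120 ppm. Without KO animal 1 at 40 ppm and 4 weeks, 5029 genes passed at 40 ppm (29.4%), and without WT animal 3 at 120 ppm and 1 week, 2659 passed at 120 ppm (15.6%). The first count held 2521 rises (14.7%) and 2508 falls (14.7%), and the second 1993 rises (11.7%) and 666 falls (3.9%). For that WT animal the 18S middle control, at 10.78 log2, and the mean of the 15 largest falls, at 5.01 log2, lay in or below the range of the 4-week arrays at that dose.

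Genes that passed in control lungs mostly moved the same way in exposed lungs. Of the 2617 genes, 2546 (97.3%) had the same sign at 40 ppm and 2510 (95.9%) at 120 ppm. Among the genes that did not pass, these shares were 68.6% and 64%. At 40 ppm 1185 of them passed in the same direction, 45.3% of the control list and 51.4% of the 40 ppm list, and at 120 ppm 1463 passed, 55.9% and 58.7%. Without the array that stood apart the shared counts were 2150 at 40 ppm and 1607 at 120 ppm. A total of 805 genes, 579 higher and 226 lower, passed in the same direction at 0, 40 and 120 ppm.

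The 15 largest falls in control lungs all passed as falls at both doses. Nup214 differed by -1.31 at 0 ppm, -1.15 at 40 ppm and -0.995 at 120 ppm, and Chd4 by -0.98, -1.04 and -0.83. Of the 14 named rises, 9 passed at 40 ppm and 12 at 120 ppm. Zfp942 differed by 1.12 at 0 ppm, 0.86 at 40 ppm and 0.74 at 120 ppm, while Ifi209, with 0.91 at 0 ppm, had 0.36 at 40 ppm and 0.57 at 120 ppm and passed at neither dose. Of the 33 control genes without overlap, 32 fell at both doses. All animals at 4 weeks lay below all at 1 week for 16 of the 33 at 40 ppm and 1 of the 33 at 120 ppm. Without the exposed array that stood apart these counts were 24 and 13.

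**Figure D5:**
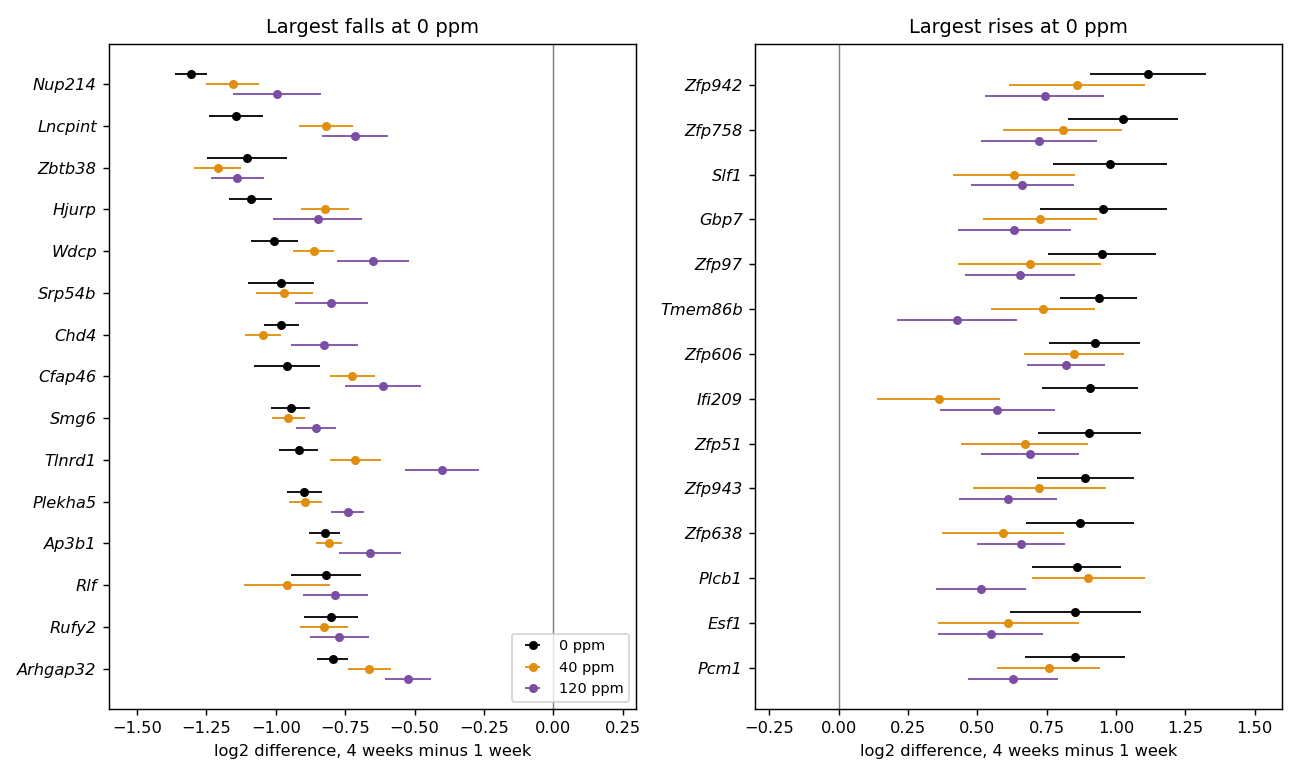
Log2 difference between the times (4 weeks minus 1 week, x axis) at 0, 40 and 120 ppm for the largest falls (left) and rises (right) in control lungs, 1 row per gene, points for the estimate and lines for 1 SE. All points lie on the same side of 0, and the falls at 0 ppm range from -1.31 to -0.80.

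The time difference itself was then compared between doses. The difference between times at 40 ppm differed from that at 0 ppm in 6 genes (0.0351%), Cep55, Top2a, Pbk, Fignl1, Deup1 and Ckap2l. Most of these act in cell division or centriole formation. Cep55 averaged 4.92 ± 0.40 log2 at 4 weeks and 4.23 ± 0.38 log2 at 1 week in control lungs (SD, n = 15 each). At 40 ppm it averaged 4.93 ± 0.31 log2 in WT, 4.58 ± 0.44 log2 in KO and 4.75 ± 0.22 log2 in TG mice at 4 weeks, against 6.50 ± 0.29 log2 in WT, 4.72 ± 0.76 log2 in KO and 4.41 ± 0.23 log2 in TG mice at 1 week (SD, n = 5 each). The high values at 1 week were thus those of WT mice, and in all 6 genes the WT mean at 40 ppm and 1 week lay above those of KO and TG mice. Without WT mice, an alternative chosen after seeing the data, the test between 40 and 0 ppm passed for 0 genes by limma (628 with an unadjusted p under 0.05), with an interaction of -0.51 for Cep55 and -0.39 for Top2a (adjusted p = 0.99 for both). Without KO mice 3 genes passed, and without TG mice 15. In the mitosis list, 6 of 30 rose in control lungs. Over the strains 15 of 30 fell at 40 ppm (7.03% of all genes fell) and 4 of 30 fell at 120 ppm (2.3% of all genes fell). Without WT mice 0 of 30 fell at either dose by limma (2 and 0 with an unadjusted p under 0.05 at 40 and 120 ppm), with a median difference of -0.03 at 40 ppm and 0.12 at 120 ppm. Whether the strains differed from each other in this was not tested. Between 120 and 0 ppm the test passed for 0 genes by limma (1091 with an unadjusted p under 0.05). It passed for 59 without 4 arrays, the 2 control arrays of lowest weight and the 2 exposed arrays that stood apart. At 40 ppm 40 genes passed without those 4 arrays, the 6 among them.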

How the data were processed

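RNA of whole lungs from 90 mice was hybridised to Affymetrix arrays, 1 per animal, with a 3' IVT labelling kit per the labels' protocols. The deposited table holds log2 expression values for 45141 probe sets, which the authors made with RMA and Partek, as named without versions in the submitters' processing notes. No raw intensities were analysed here. The 104 control probe sets, 551 probe sets with several listed genes and 15588 with none were left out, and the probe set with the highest mean over all arrays stood for each gene, giving 17097 genes.

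Groups came from the sample labels. The 30 arrays at 0 ppm were fitted with limma 3.58.1 in R 4.3.3 (lmFit and eBayes), with strain and time as additive terms and 26 residual degrees of freedom. Effects within strains and their difference came from a fit of 6 group means, and dose differences from a fit of all 90 arrays. P-values were adjusted by Benjamini-Hochberg over 17097 genes. Labels call the animals biological replicates, and the number of arrays limits the precision. RefSeq (GRCm38.p6) gave gene spans for 99% of genes and was used for no coordinates. The tests were checked on simulated data.

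Comparison, gene lists and members were chosen with earlier results of these data known. Named genes are the 15 largest rises and 15 largest falls that passed (a predicted gene was left out of the rises), up to 5 per direction within strains, the smallest p for interactions, and up to 6 members of a list by size. Alternatives were quantile normalisation applied again, dim genes left out, the median over probe sets, all 90 arrays, an intensity trend, array weights, a replicate block, poly-A controls as a covariate, and animals or strains left out. Leaving out the 3 control arrays that stood apart, the exposed arrays that stood apart and single exposed animals was added after seeing the data.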

Additional observations from a re-analysis of the deposited data

Results flagged for a closer look

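Single animals lay far from the other 4 of their group in 24 of 198 sets of 5 values (12.1%), by Dixon's ratio of the gap to the whole range. The sets came from the 14 named rises, the 15 largest falls and the array measures. Chance flags about 1 in 20 independent sets. These sets share arrays and are not independent, so that rate is no like measure for the 24 flags. TG animal 3 at 4 weeks accounted for many of them, with ratios of 0.856 for Zfp758, 0.801 for Slf1, 0.714 for Zfp97, 0.731 for Zfp606, 0.78 for Zfp51, 0.823 for Zfp943, 0.788 for Esf1 and 0.814 for Pcm1, and 0.852 for the mean of the largest rises. The same animal stood apart for the falls Zbtb38 (0.78), Smg6 (0.79) and Rlf (0.771) and for the array median (0.894). TG animal 5 at 1 week stood apart for Gbp7 (0.732), Tmem86b (0.732), Ifi209 (0.725), Zfp638 (0.717), Srp54b (0.812) and Tlnrd1 (0.719). Others were TG animal 4 at 1 week for Lncpint (0.777), WT animal 1 at 1 week for Hjurp (0.761) and for the array median (0.856), KO animal 1 at 4 weeks for Chd4 (0.733), and KO animal 3 at 1 week for the array median (0.713).

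The time difference at 40 ppm differed from that in control lungs by the interaction test in 6 genes, and in 0 genes without WT mice. The interaction, 40 ppm minus 0 ppm, was -1.14 for Cep55, -0.97 for Top2a, -0.96 for Pbk, -0.84 for Fignl1, -0.72 for Deup1 and -0.61 for Ckap2l on the log2 scale.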

How the results depend on the processing

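Of the largest changes, all 15 falls kept direction and call in every alternative in which they were tested. The rises did so in 583 of 600 evaluations. The median over probe sets could not change genes with a single probe set. Among the falls these were Nup214, Lncpint, Zbtb38, Hjurp, Srp54b, Chd4, Cfap46, Rlf and Arhgap32. With 2 probe sets, as for Ap3b1 and Rufy2, that median still holds the brightest. Smg6 and Plekha5 have 3 probe sets, whose brightest averaged 6.40 and 6.27 log2 and whose next averaged 6.24 log2 in both genes. After a fall the brightest can itself be the median there. For the falls this setting was therefore no test by the other probe sets alone. The 2 probe sets of Rufy2 moved in opposite directions. The exceptions among rises were the median over probe sets (3 lost, 1 reversed) and leaving out KO (7 lost) or WT mice (6 lost). The rises lost without a strain kept differences of 0.77 (Plcb1 without KO mice) to 1.001 (Gbp7 without WT mice), with adjusted p from 0.051 to 0.12. With the median over probe sets Zfp942 was 0.10, Tmem86b 0.18 and Zfp638 0.16. The other probe sets of Zfp942 were dim, averaging 2.93 and 3.02 log2, as were those of Tmem86b at 2.72 and 3.26 log2. Those of Zfp638 averaged 6.90 and 4.10 log2. The other probe sets of Rgs5, Cyp1b1 and Pgr, given next, were dim too, averaging at most 3.43, 3.27 and 2.68 log2. With the median over probe sets, Plcb1 reversed to -0.39, and Slc7a2 (-0.063), Rgs5 (-0.024), Cyp1b1 (-0.13), Higd1a (0.062), Ghr (-0.0043) and Pgr (-0.048) also changed sign. That setting passed 2418 genes, 1239 of them higher.

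The 2617 genes of the main comparison became 5121 with poly-A controls as covariate (2534 higher, 2587 lower), 1742 without the 2 control arrays of lowest weight (623 lower), 381 without WT mice (134 higher, 247 lower), 293 without KO mice (117 higher, 176 lower) and 1510 without TG mice (425 lower). Leaving out a strain also leaves 20 animals. Other settings gave between 2418 and 3341. Leaving out 1 animal gave 1971 to 3162 genes, 1237 to 2105 higher and 722 to 1337 lower. The counts within WT, KO and TG mice were 228, 169 and 157 with the median over probe sets, 390, 284 and 184 with array weights, and 247, 3998 and 200 with the poly-A covariate, and WT had 448 without the 3 arrays. Leaving out 1 animal gave 76 to 122 in WT. In KO mice it gave 35 to 117, with 42, 44 and 35 without KO animal 1 at 1 week and KO animals 2 and 5 at 4 weeks, and 117 and 112 without TG animal 5 at 1 week and TG animal 3 at 4 weeks. In TG mice it gave 37 to 100, with 37, 41 and 100 without TG animal 2 at 1 week and TG animals 5 and 3 at 4 weeks. Without WT mice 215 genes passed at 40 ppm and 398 at 120 ppm. Leaving out 1 animal gave 1673 to 5029 at 40 ppm, the highest without KO animal 1 at 4 weeks, and 1987 to 2933 at 120 ppm. The dose interaction passed for 18 genes at 40 ppm without the 2 control arrays, and for 40 at 40 ppm and 59 at 120 ppm without 4 arrays. Without WT, KO and TG mice it passed for 0, 3 and 15 genes at 40 ppm and for 0, 15 and 0 at 120 ppm. The strain interaction stayed at 0 genes when single animals were left out. The causes were not tested.

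Replicate numbers did not pair the animals, as only 7 of 15 same-numbered pairs of deviations correlated over 0.1 (from -0.33 to 0.52). With the replicate block 2906 genes passed, with 100 in WT, 100 in KO and 74 in TG mice.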
